A study of Oryza sativa with 4 samples.

Results

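The ubiquitin-proteasome system marks proteins with ubiquitin and degrades them, and 191 of the 31453 rice loci in the deposited tables belong to the proteasome and ubiquitin conjugation module described here. A locus was taken as a member when its deposited name contained, in either letter case, the words proteasome, 26S protease, peptidase T1 family, ubiquitin-conjugating, ubiquitin carboxyl-terminal or SKP1. The rule itself reads names alone. By name the members fell into 7 role groups: 23 loci of the 20S core, 12 ATPases and 14 non-ATPase subunits of the 19S cap, 22 other proteasome proteins, 47 ubiquitin-conjugating enzymes, 57 ubiquitin carboxyl-terminal hydrolases and 16 SKP1-like proteins.

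Ubiquitin is activated by one enzyme, passed to a conjugating enzyme and attached to a target protein with the help of a ligase. In SKP1-cullin-F-box ligases, SKP1 joins the cullin to the F-box protein that picks the target. Tagged proteins are unfolded by the ATPases of the 19S cap and cut inside the barrel of the 20S core, while deubiquitinating enzymes take ubiquitin off again. Developing endosperm fills with storage protein, and growing roots continuously make and degrade protein.

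Poly(A)-selected RNA was sequenced from 2 indica rice (Oryza sativa) cultivars whose brown rice held 24.88 ppm iron (Sharbati) or 7.80 ppm iron (Lalat). All plants grew in pots of soil and farmyard manure in a net house, with no treatment named in the labels, and were sampled 15 days after panicle emergence. Developing grain and roots of each cultivar made up 4 groups, with 1 library each. There was thus no replicate, the spread between plants is unknown, and all comparisons set 1 library against another, with no test.

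Values are the deposited FPKM, fragment numbers divided by transcript length and by sequencing depth. Total counts were not used here, but the FPKM value of 1 fragment, read from loci seen in only 1 library of an organ, was on median 0.0302 (Sharbati) and 0.0402 (Lalat) in the grain libraries and 1.07 (Sharbati) and 0.105 (Lalat) in the root libraries. Sharbati root was therefore the coarsest library, with a 10th to 90th percentile of 0.293 to 4.52 FPKM for 1 fragment. Of the 150 members above 0 there, 26 lay at or under 4.52 FPKM. Organ markers followed the labels in part. The summed level of 9 endosperm storage genes was 50644 and 56853 FPKM in Sharbati and Lalat grain, where 5 of the 9 were not listed and GluA2 (LOC_Os10g26060) was listed at 0 in Sharbati. In roots the same sum was 63.1 FPKM in Sharbati, with GluD1 (LOC_Os02g15090) at 0, and 2357 FPKM in Lalat, where all 9 were above 0. Of 5 root markers, 3 in Sharbati grain and 4 in Lalat grain were above 0, with summed levels of 0.509 and 0.883 FPKM. The root sums were 304 FPKM in Sharbati, with RCc3 (LOC_Os02g44310) at 0, and 145 FPKM in Lalat. The 2 oil body genes summed to 99.8 and 226 FPKM in Sharbati and Lalat grain and to 2.50 and 2.02 FPKM in the roots, and the leaf gene RBCS2 stood between 4.25 and 20.2 FPKM in all 4 libraries.

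The role names were checked against the function terms deposited beside each locus. All 23 core loci carried a threonine-type endopeptidase term, the activity of the 20S barrel. All 12 ATPases carried ATP binding, a term that 4 conjugating enzymes and 2 hydrolases carried too. The term proteasome complex was on all 23 core loci, 9 of 12 ATPases, 8 of 14 non-ATPases and 10 of 22 other proteasome proteins. The terms thus bore out the names of the cap and other proteasome loci only in part. All 47 conjugating enzymes had a small conjugating protein ligase term, 56 of 57 hydrolases had ubiquitin thiolesterase activity, and all 16 SKP1-like loci had ubiquitin-dependent catabolism. Among the 22 other proteasome proteins, however, 5 loci named only as proteasome subunits (LOC_Os01g17180, LOC_Os03g02540, LOC_Os03g10120, LOC_Os07g30840 and LOC_Os08g02550) carried the term cullin deneddylation, the activity of the COP9 signalosome, a complex related to the 19S lid. For these 5 the terms go against the name. They stay among the members by the rule. One SKP1-like locus, LOC_Os01g43540, is named a suppressor of the G2 allele of SKP1, a partner of SKP1 and not a copy of it.

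Nearly all of the module was above 0 FPKM in grain and in Lalat root. Of 191 members, 186 (Sharbati) and 184 (Lalat) were above 0 FPKM in grain, and 150 (Sharbati) and 176 (Lalat) in root. Of all 31453 loci, 25305 and 24886 were above 0 in grain, and 15584 and 23740 in root. At 1 FPKM or more stood 75.4% (Sharbati) and 80.6% (Lalat) of members in grain, and 74.9% and 83.2% in root. The shares of all loci at that level were 35.7% and 41.3% in grain, and 42.0% and 59.1% in root. The median member above 0 was at 9.62 FPKM (Sharbati) and 9.65 FPKM (Lalat) in grain, against 0.638 and 1.18 over all loci above 0. In the roots the member medians were 22.3 FPKM in Sharbati and 29.0 in Lalat, against 5.88 and 6.53 over all loci. Members together made up 0.708% of the summed FPKM in Sharbati grain, 1.10% in Lalat grain, 1.68% in Sharbati root and 1.59% in Lalat root, so the share was lower in both grain libraries than in both roots. A few abundant loci bear on these shares: the 10 highest loci of each library held 38.2%, 29.2%, 21.5% and 8.61% of its FPKM in the same order. In bulk tissue, fewer cells of a type and less RNA per cell cannot be told apart.

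Conjugating enzymes dominated the module. They held 60.4% of the members' summed FPKM in Sharbati grain, 63.1% in Lalat grain, 63.8% in Sharbati root and 59.3% in Lalat root. Median levels of a core locus were 21.0 and 20.6 FPKM in Sharbati and Lalat grain and 35.5 and 66.9 FPKM in the roots. The median carboxyl-terminal hydrolase had only 2.28 and 2.61 FPKM in the grain libraries of Sharbati and Lalat and 5.39 and 5.15 FPKM in their root libraries. The hydrolases were the largest role group by number and among the lowest by level: 7 of 57 reached 10 FPKM in each grain library, against 17 of 23 core loci. The low loci include a run of 8 neighbouring hydrolase loci on chromosome 8, between 26233693 and 26299397 (65705 bp, coordinates as deposited, build not given in the sources used here). None of the 8 exceeded 1.81 FPKM in grain or 3.32 FPKM in root, and 6 were listed at 0 in Sharbati root.

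**Figure D1:**
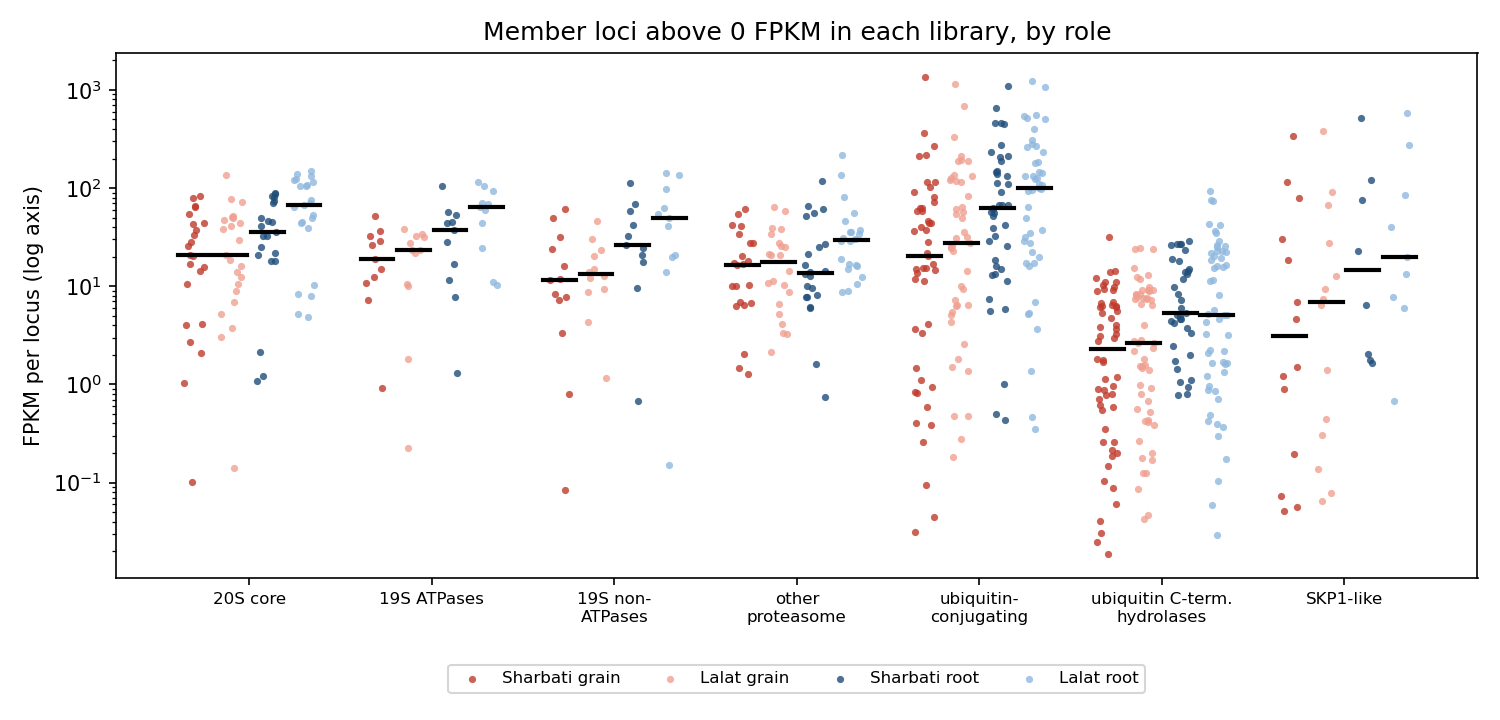
FPKM of each member locus above 0 (log axis) in the 4 libraries, by role group, with 1 point per locus and a black bar at the median. Hydrolases sit lowest, with medians from 2.28 to 5.39 FPKM, and conjugating enzymes reach furthest up, to 1359 FPKM in Sharbati grain.

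The first question is whether the module differs between the high-iron and the low-iron cultivar in grain. Most of it did not stand apart. Ratios were taken as log2((Sharbati + 1)/(Lalat + 1)) of FPKM, for loci above 0 in both libraries and at 1 FPKM or more in at least 1, and a locus was counted as apart at 2-fold on this scale. Of the 191 members, 156 could be compared in grain; 25 more were below 1 FPKM in both libraries, 3 were listed at 0 in Sharbati only and 5 in Lalat only, and 2 were in neither grain table. The highest partner value among those at 0 was 0.224 FPKM. Sharbati was higher at 3 members and lower at 16, against a background over all 13417 compared loci of 6.31% higher and 17.4% lower. Members were thus apart in 12.2%, and all loci in 23.7%. The median member ratio was -0.24 and that of all loci -0.35.

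The direction of this small shift rests on the scale. The grain libraries differed by a median log2 of -0.29 over the 10531 loci at 1 FPKM or more in both. After scaling by that median ratio, 8 members were higher and 8 lower of 158 compared, against 9.75% and 11.8% of all loci. The median member ratio was then 0.02, and that of all loci -0.11. Members were also expressed well above the median locus. Restricting the comparison to loci at 10 FPKM or more in both libraries left 1 member higher and 3 lower of 83, or 4.82% apart, against 7.19% higher, 8.89% lower and 16.1% apart over all 3645 such loci.

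**Figure D2:**
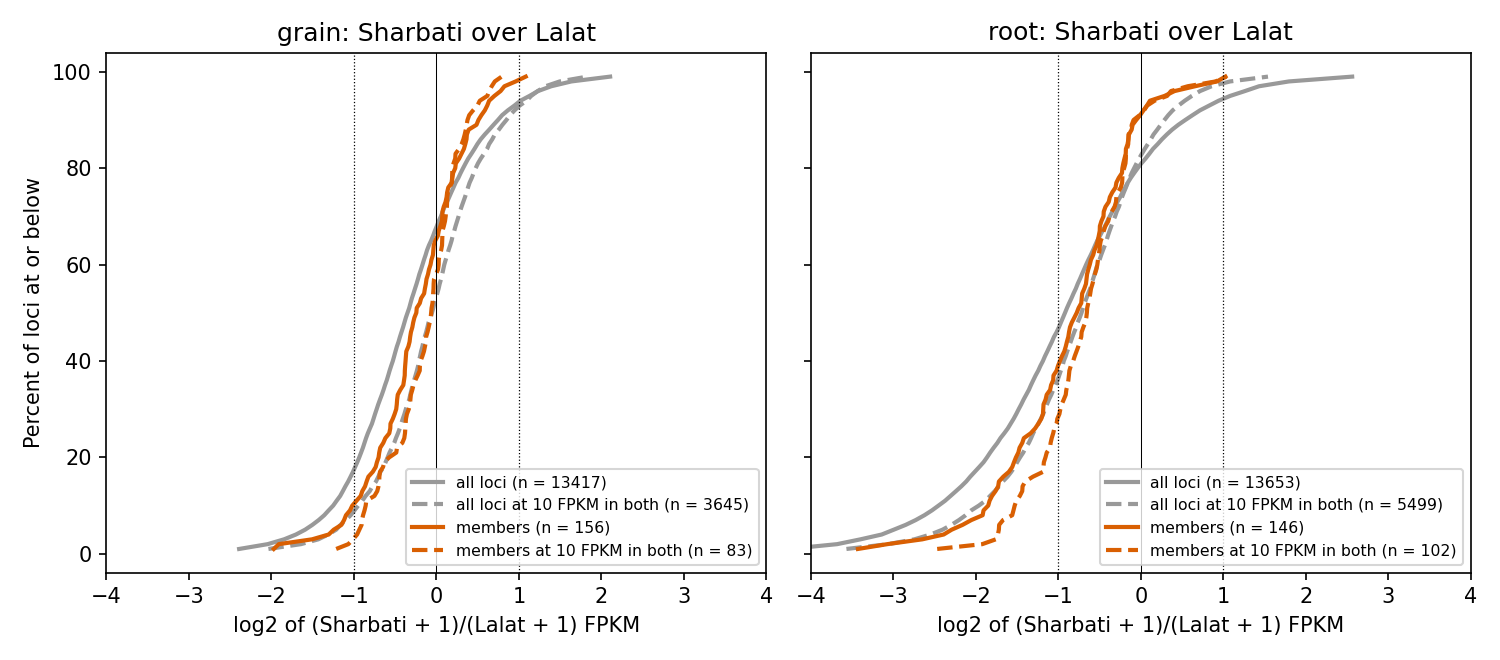
Cumulative percent of loci (vertical axis) at or below each Sharbati over Lalat log2 ratio (horizontal axis), for all compared loci and for members, in grain (left) and root (right). Dashed lines keep only loci at 10 FPKM in both libraries, and dotted verticals mark 2-fold. The member curves are steeper than those of all loci, and the root curves lie further left, with a member median of -0.78 against -0.24 in grain.

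Core and cap subunits were close between the grain libraries. The 67 compared loci of the first 4 role groups held 1 higher and 4 lower, or 1.49% and 5.97%, against 6.31% and 17.4% of all loci. The most abundant core locus, LOC_Os09g33986, had 82.7 FPKM in grain of Sharbati and 136 in grain of Lalat, and 87.3 and 138 in their roots. The next in grain, LOC_Os03g48930, stood at 79.8 and 77.6 FPKM in grain and at 74.5 and 105 in root. In both organs the level of the first was lower in Sharbati, by less than 2-fold, while the second was level in grain.

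Among the 22 compared core loci none was higher and 2 were lower in Sharbati grain, with a group median of -0.13. The lower share was 9.09%, against 17.4% of all loci. LOC_Os05g41180 had 1.03 FPKM in grain of Sharbati against 6.94 in that of Lalat (log2 ratio -1.96), and 20.9 against 39.1 in root. In the authors' deposited table its grain p is 0.00143 and it is called significant. LOC_Os03g26970 had 4.12 against 12.5 FPKM in grain (log2 ratio -1.40) and 25.1 against 44.6 in root. Both are minor core loci in grain, each well under the core median of 21.0 FPKM in Sharbati. A core locus with several near-identical relatives can gain or lose fragments to them in the authors' mapping, and this uncertainty applies to every gene family named here.

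Several ATPases of the 19S cap are encoded by a pair of loci with the same name, and the balance within a pair could differ between libraries. For regulatory subunit 7, LOC_Os06g09290 had 36.4 and 31.7 FPKM in grain of Sharbati and of Lalat, and 45.0 and 68.7 FPKM in their roots. Its partner LOC_Os02g54340 had 10.9, 23.5, 28.0 and 63.5 FPKM in the same order. The partner thus supplied 23.0% of the subunit 7 FPKM in grain of Sharbati and 42.6% in grain of Lalat, and 38.4% and 48.02% in the roots. It was lower in Sharbati in both organs, with log2 ratios of -1.05 in grain and -1.15 in root, but at -0.78 and -0.18 after median-ratio scaling it was apart in neither. For subunit 6A, LOC_Os02g56000 supplied 78.4% and 72.1% in the grain libraries and 83.3% and 74.0% in the roots. For subunit 4, LOC_Os07g49150 supplied 60.6%, 63.7%, 72.6% and 68.3% in the same order. Subunit 6B came almost wholly from LOC_Os02g21970, with the highest mean over the grain libraries, at 51.8 and 32.8 FPKM in Sharbati and Lalat grain and 106 and 114 FPKM in the roots. The second 6B locus, LOC_Os09g38730, was listed at 0 in Sharbati grain and at 0.224 FPKM in Lalat grain. The 6A and 4 pairs and the second 6B locus were chosen for naming after their values were seen.

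Before scaling, the only proteasome locus higher by 2-fold in Sharbati grain encodes non-ATPase subunit 14, the metalloprotease of the 19S lid that removes ubiquitin chains from incoming proteins. After median-ratio scaling 3 proteasome loci were higher, this one and, just past the limit, LOC_Os07g25420 (1.02) and LOC_Os01g17180 (1.04). LOC_Os05g30800 had 49.3 FPKM in grain of Sharbati and 23.4 in grain of Lalat, and 32.2 and 55.0 FPKM in their roots. Its log2 ratios were 1.05 in grain (1.33 after scaling) and -0.75 in root. The root ratio is smaller in size than the median root shift of -0.999, so the lower root level in Sharbati does not outlast median-ratio scaling. The second subunit 14 locus, LOC_Os01g16190, was the most abundant non-ATPase locus in all 4 libraries at 60.99 and 45.7 FPKM in the Sharbati and Lalat grain libraries and 112 and 141 FPKM in the root libraries. LOC_Os05g30800 lay just inside the 2-fold limit. The nearest member outside on that side, LOC_Os08g41540, had a ratio of 0.97, and on the lower side LOC_Os06g48640 at -1.04 lay just inside and LOC_Os01g48580 at -0.997 just outside.

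Non-ATPase subunit 6, a lid subunit, was split differently between the organs. LOC_Os02g38810 supplied 58.9% and 51.3% of the FPKM of the 4 loci with this name in Sharbati and Lalat grain, and 29.7% and 28.7% in the roots. LOC_Os04g40850 supplied 26.05% and 29.8% in grain, and 70.3% and 71.3% in the roots. LOC_Os01g74360 and LOC_Os02g38800, the others of this name, were not listed in root, so the root shares are over fewer loci than the grain shares. The main locus of grain was thus the minor one of root in both cultivars. These loci were chosen after their values were seen.

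Conjugating enzymes held 2 of the 3 higher members and 5 of the 16 lower ones in grain, of 41 compared. These are 4.88% and 12.2% of the group, below the 6.31% and 17.4% of all loci. The widest difference was at LOC_Os12g44000 (chromosome 12, 27295420 to 27298738), named as a conjugating enzyme E2 W, a class known in human cells for placing ubiquitin on protein amino termini. It had 27.9 FPKM in Sharbati grain and 4.35 FPKM in Lalat grain, a plain 6.42-fold and a log2 ratio of 2.44. In the authors' deposited table its grain p is 0.000395 and it is called significant. In root the order turned: 39.4 FPKM in Sharbati against 107 FPKM in Lalat, a log2 ratio of -1.41, where the authors' deposited table makes no call and gives p = 0.177. After median-ratio scaling the root ratio was -0.43, inside 2-fold, and the grain ratio 2.72. The other E2 W locus, LOC_Os03g47770, chosen after its values were seen, had 36.1 and 31.7 FPKM in grain and 32.6 and 110 FPKM in root. Lalat grain was thus the library in which LOC_Os12g44000 was low, while its relative was not.

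LOC_Os01g13280 was the one member higher in Sharbati in both organs. It had 16.9 FPKM in Sharbati grain, 7.17 in Lalat grain, 15.0 in Sharbati root and 6.95 in Lalat root. Both Sharbati libraries were above both Lalat libraries, and within a cultivar grain and root were alike. Its log2 ratios were 1.13 in grain and 1.01 in root, the latter at the limit, and neither is called in the authors' deposited table, with p = 0.0664 and p = 0.326. Over all loci compared in both organs, 0.452% were higher in Sharbati in both.

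LOC_Os02g02830 (chromosome 2, 1078474 to 1079652) differed most in the other direction. This conjugating enzyme had 0.583 FPKM in grain of Sharbati against 5.50 in grain of Lalat, and 56.3 FPKM in root of Sharbati against 1070 in root of Lalat. Its log2 ratios were -2.04 and -4.22, and the plain root values were 19.01-fold apart. In Lalat root this single locus made up 7.63% of all member FPKM, against 0.609% in Sharbati root. The authors' deposited table calls the grain difference with p = 0.00103 and lists p = 0.00378 without a call for root. LOC_Os09g12230 was low in Sharbati grain, at 0.939 against 6.40 FPKM (log2 ratio -1.93), with 42.1 and 49.4 FPKM in the roots. In the authors' deposited table its grain p is 0.00144, with a call.

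Of the 29 conjugating enzymes at 10 FPKM or more in both grain libraries, all but 2 were within 2-fold. The share apart was 6.90%, against 16.1% of all such loci. The 2 enzymes apart, lower in Sharbati and named after their values were seen, were LOC_Os05g38550, at 58.8 against 194 FPKM (log2 ratio -1.71), and LOC_Os10g39120, at 58.9 against 128 FPKM (-1.11, and -0.82 after scaling). LOC_Os06g30970, the highest member of grain, had 1359 FPKM in Sharbati and 1159 FPKM in Lalat, and made up 36.7% and 26.4% of conjugating enzyme FPKM. LOC_Os01g60410 had 367 and 687 FPKM, a log2 ratio of -0.90.

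Carboxyl-terminal hydrolases, which take ubiquitin off proteins, were lower at 6 and higher at 0 of 38 compared loci in Sharbati grain. The lower share was 15.8%, against 17.4% of all loci, and the median was -0.35, the same as over all loci. LOC_Os09g24250, the most abundant on average in grain, had 31.8 FPKM in Sharbati and 24.2 in Lalat. LOC_Os04g46190 had 9.82 and 24.6 FPKM (log2 ratio -1.24), with 23.4 and 36.6 in root. LOC_Os06g08530 had 9.43 and 23.7 FPKM in grain (-1.24) and 27.2 and 92.8 FPKM in root (-1.73). After median-ratio scaling 2 hydrolases were higher and 1 lower of 39, so the one-sided direction depends on the scale. LOC_Os11g34270 is called in grain by the authors' deposited table, but it stood at 0.0247 and 0.565 FPKM, below the level compared here.

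SKP1-like loci were led by different genes in the 2 organs. LOC_Os09g36830 had 343 and 383 FPKM in Sharbati and Lalat grain but 76.0 and 84.4 in the roots, and held 56.9% and 62.9% of the SKP1-like FPKM in grain. LOC_Os11g26910 had 79.0 and 67.3 FPKM in grain but 514 and 583 in the roots, where it held 69.0% and 56.5%. The exchange was of like size in both cultivars, and neither locus reached 2-fold between cultivars in either organ. LOC_Os01g43540, the SKP1 partner, had 117 and 92.1 FPKM in grain and 121 and 276 in root. The 1 lower SKP1-like locus of 10 in Sharbati grain was LOC_Os02g01160, at 0.894 against 6.46 FPKM, and it was not listed in root.

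The same comparison in root gave a broad shift toward Lalat, shared by all loci. Of 146 members compared, 3 were higher and 57 lower in Sharbati root, against 5.51% higher and 46.7% lower over all 13653 loci. Median ratios were -0.78 for members and -0.92 for all loci. After scaling by the median ratio, which moved the root pair by a log2 of -0.999, the split was 11 higher and 15 lower, against 17.5% and 20.8% of all loci, and the member median was 0.16. The median of all loci was then -0.015, because the scaling sets it near 0, so the loss of the negative member median follows from the scaling itself. On either scale the members' shares were below the background. At the 2-fold limit before scaling, LOC_Os06g07630 (-1.02) lay just inside and LOC_Os06g30970 (-0.99) just outside on the lower side, and LOC_Os01g13280 (1.01) inside and LOC_Os04g58800 (0.91) outside on the higher side. At 10 FPKM in both libraries 2 members were higher and 29 lower of 102, against 2.27% higher, 36.6% lower and 38.9% apart over all such loci. Depth moves with this result: of the 57 lower members, 17 lay at or under 4.52 FPKM in Sharbati root and 40 above it. That limit is the 90th percentile for 1 fragment there, and the median was 1.07 FPKM. A member under the limit can thus hold more than 1 fragment, and the same count was not made over all loci. Storage transcripts were also more abundant in Lalat root, and the part of either in the ratios was not tested.

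A further 29 members were listed at 0 in Sharbati root and above 0 in Lalat root, 3 the other way round, 12 were in neither root table and 1 was below 1 FPKM in both. Such zeros were common over all loci, of which 15584 were above 0 in Sharbati root and 23740 in Lalat root. With zeros kept, the compared loci rose from 146 to 162 among members and from 13653 to 19723 over all loci. Among the 29 the highest Lalat value was 7.75 FPKM, at the SKP1-like LOC_Os07g43260. The conjugating enzyme LOC_Os04g49130 stood at 5.34 FPKM and the core locus LOC_Os06g07978 at 5.19 FPKM in Lalat root, with 0 in Sharbati root. In grain both were above 0 in both cultivars, at 4.17 and 6.47 FPKM and at 2.70 and 3.77 FPKM. These 3 Lalat values exceed the 4.52 FPKM that 1 fragment could stand for in Sharbati root, and the authors' deposited table makes no call for them, with p = 0.0189, 0.0208 and 0.0291.

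By role, Sharbati root was lower at 10 of 21 core loci, 6 of 11 ATPases, 2 of 10 non-ATPases and 8 of 22 other proteasome loci, and higher at 1, in the last group, against 46.7% lower over all loci. All 21 core loci and all 11 ATPases had ratios below 0, as did 80.9% of all loci, and after scaling 10 core loci and 6 ATPases did. LOC_Os02g42320 showed the widest core difference, with 21.7 FPKM in Sharbati root and 125 in Lalat root (log2 ratio -2.47), beside 43.8 and 50.5 FPKM in grain. LOC_Os06g06030, the highest core locus of root, had 89.0 and 148 FPKM there and 64.0 and 49.4 FPKM in grain. Median-ratio scaling left 4 core loci and 1 ATPase lower by 2-fold and none higher, against 20.8% lower over all loci.

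ATPase LOC_Os06g39870, regulatory subunit 8, had 1.31 FPKM in Sharbati root against 10.4 in Lalat root, and 12.4 and 10.0 in grain. Its Sharbati root value lies within the range of 1 fragment. LOC_Os02g11050 had 37.3 and 105 FPKM in root (log2 ratio -1.47) and 32.7 and 33.7 in grain. The lid subunit 3 locus LOC_Os08g43640 had 20.7 and 63.0 FPKM in root (-1.56) and 11.8 and 20.2 in grain. LOC_Os07g25420, subunit 8 of the lid, had 58.9 and 135 FPKM in root (-1.18) and 23.95 and 13.98 in grain. As deposited, cap subunits that were low in Sharbati root were thus not uniformly low in Sharbati grain. After median-ratio scaling, 1 of 11 ATPases and 0 of 10 non-ATPases were 2-fold lower in Sharbati root, against 20.8% of all loci. The ATPase that remained was LOC_Os06g39870, at -1.65.

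UMP1 maturation factors, which help assemble the 20S core, also split. LOC_Os02g55640 had 54.1 and 64.0 FPKM in Sharbati and Lalat grain, and 65.9 and 135 in the roots. LOC_Os03g38720 had 10.2 and 6.66 FPKM in grain, and 0.745 and 19.1 in the roots, a root log2 ratio of -3.53. The Sharbati root value lies within the range of 1 fragment. LOC_Os03g10120, one of the 5 loci with the deneddylation term, likewise had 1.60 FPKM in Sharbati root and 16.4 in Lalat root, beside 16.3 and 11.3 in grain. LOC_Os04g36700, named a proteasome subunit, was the single proteasome locus higher in Sharbati root before scaling (3 after it), with 60.8 against 29.1 FPKM (log2 ratio 1.04) and 18.1 against 25.7 in grain. LOC_Os03g63430, the highest of this group in 3 of the 4 libraries, had 61.3 and 58.3 FPKM in grain of Sharbati and of Lalat, and 117 and 218 FPKM in their roots.

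Conjugating enzymes were lower in Sharbati root at 10 and higher at 2 of 41, or 24.4% and 4.88%, against 46.7% and 5.51% of all loci. LOC_Os09g15320 had the highest ratio, with 51.5 FPKM in Sharbati root and 17.4 in Lalat root (log2 ratio 1.51), beside 218 and 190 in grain. LOC_Os04g57220, the highest in both roots, had 1095 and 1228 FPKM in Sharbati and Lalat, and LOC_Os01g46926 had 657 and 509 FPKM, both within 2-fold. LOC_Os02g02830, second in Lalat root, was far apart as described above. After scaling, which moves every root ratio up, 7 conjugating enzymes were higher and 2 lower of 41, against 17.5% and 20.8% of all loci. Hydrolases were lower at 17 of 34 and SKP1-like loci at 4 of 7, with none higher in either group before scaling, and at 5 of 34 and 1 of 7 after it, with 1 hydrolase higher. LOC_Os03g09270 had 0.778 and 16.6 FPKM in Sharbati and Lalat root and LOC_Os11g34270 had 1.06 and 16.03, both near 1 fragment in Sharbati. Of 287 loci called in root by the authors' deposited table, 1.14% of those listed, none was a member, against 5 members among the 1102 called in grain, or 3.89% of those listed.

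The grain and the root comparison share no library, so a locus can be followed across them. Of 137 members compared in both, 6 were lower in Sharbati in both organs, which is 46.2% of the 13 lower in grain and 11.5% of the 52 lower in root. Over all 9959 loci compared in both, 7.97% were lower in both, 51.6% of the grain set and 16.3% of the root set, so the overlap among members was near or below the background. The 6 were LOC_Os02g02830, the ATPase LOC_Os02g54340 and 4 hydrolases. After median-ratio scaling LOC_Os02g02830 alone of the 6 was still 2-fold lower in both organs (log2 ratios -1.92 and -3.24), and the other 5 had grain ratios between -0.98 and -0.78. Hydrolase LOC_Os01g36930 had 4.02 and 9.87 FPKM in grain and 26.3 and 73.0 in root. LOC_Os02g36400 had 3.26 and 8.41 FPKM in grain and 18.96 and 74.8 in root. LOC_Os11g36470 had 3.11 and 7.69 FPKM in grain and 2.46 and 15.8 in root, its Sharbati root value lying within the range of 1 fragment. With LOC_Os06g08530, these are the 4 hydrolases, and their higher FPKM in the Lalat library of each organ follows from how they were chosen. Opposite ways at 2-fold were taken by 1 member, LOC_Os12g44000, against 2.83% of all loci.

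**Figure D3:**
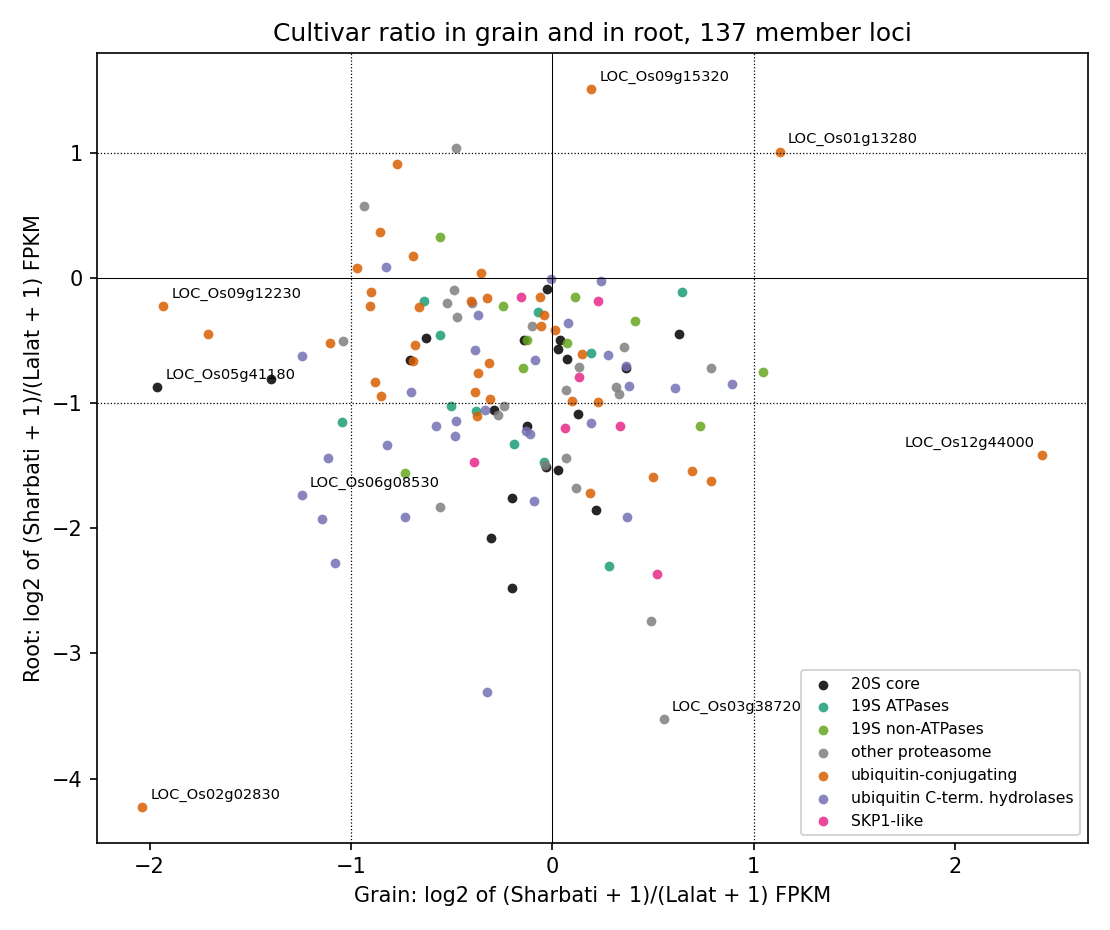
Sharbati over Lalat log2 ratio in grain (horizontal axis) and in root (vertical axis) for the 137 members compared in both organs, coloured by role group, with dotted lines at 2-fold. LOC_Os12g44000 lies alone at lower right (2.44, -1.41), LOC_Os02g02830 at lower left (-2.04, -4.22) and LOC_Os01g13280 at upper right (1.13, 1.01).

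Grain and root were normalized in separate tables, so organ ratios set levels across them, and they share libraries with the cultivar ratios. In Sharbati 18 members were at least 2-fold higher in grain and 58 lower, of 146, against 14.0% and 51.0% of all loci. In Lalat 6 were higher in grain and 94 lower, of 162, against 7.11% and 59.7%. Member medians were -0.61 and -1.20, and those of all loci -1.04 and -1.30. Scaling by the median ratio gave 25 higher and 37 lower in Sharbati, against 19.9% and 43.0% of all loci, and 25 higher and 21 lower in Lalat, against 18.0% and 36.5%. With 10 FPKM or more in both organs, 8 members were higher in grain and 31 lower (38.3%) of 81 in Sharbati, against 16.9% and 28.3% of all such loci. In Lalat 4 were higher and 54 lower (60.0%) of 90, against 7.48% and 42.7%. At that level the members' share lower in grain was thus above the share of all loci in both cultivars, while without the limit it was 39.7% and 58.0%, below theirs. A further 26 members were at 0 in Sharbati root and above 0 in Sharbati grain, up to 13.9 FPKM. With zeros and unlisted loci kept at 0, the compared loci in Sharbati rose from 146 to 156 among members. Over all loci they rose from 12648 to 16100.

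Members at least 8-fold apart between organs in both cultivars were few, and the 3 found were conjugating enzymes. For this purpose 86 members with 20 FPKM or more in at least 1 library of each cultivar were taken, a limit set after the values were seen. Of these, 3 were at least 8-fold higher in root in both cultivars, against 22.3% of the 4031 loci so chosen, and none was 8-fold higher in grain, against 2.93%. All 3 passed the 20 FPKM limit through their root libraries alone. LOC_Os02g02830 was the first, with the values given above. LOC_Os04g58800 had 1.10 and 2.59 FPKM in Sharbati and Lalat grain and 234 and 124 in the roots. LOC_Os05g48390 (chromosome 5, 27740004 to 27747950) had 0.0948 and 0.276 FPKM in grain and 29.1 and 98.2 in the roots. Next to it, LOC_Os05g48380 (27733710 to 27738323) had 62.3 and 64.9 FPKM in grain and 13.0 and 17.3 in the roots. The 2 neighbouring conjugating enzyme loci thus had opposite organ patterns in both cultivars. At 4-fold, 11 members were higher in root in both cultivars, against 33.7% of all such loci, and 2 were higher in grain, LOC_Os09g15320 and LOC_Os09g36830, against 4.52%. The 11 were of several roles. Among them were core locus LOC_Os05g41180, cap locus LOC_Os04g40850, hydrolase LOC_Os01g36930 and SKP1-like LOC_Os11g26910. At 2-fold the numbers were 38 in root, against 49.3%, and 4 in grain, against 7.69%, the further 2 being LOC_Os05g48380 and LOC_Os06g30970.

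**Figure D4:**
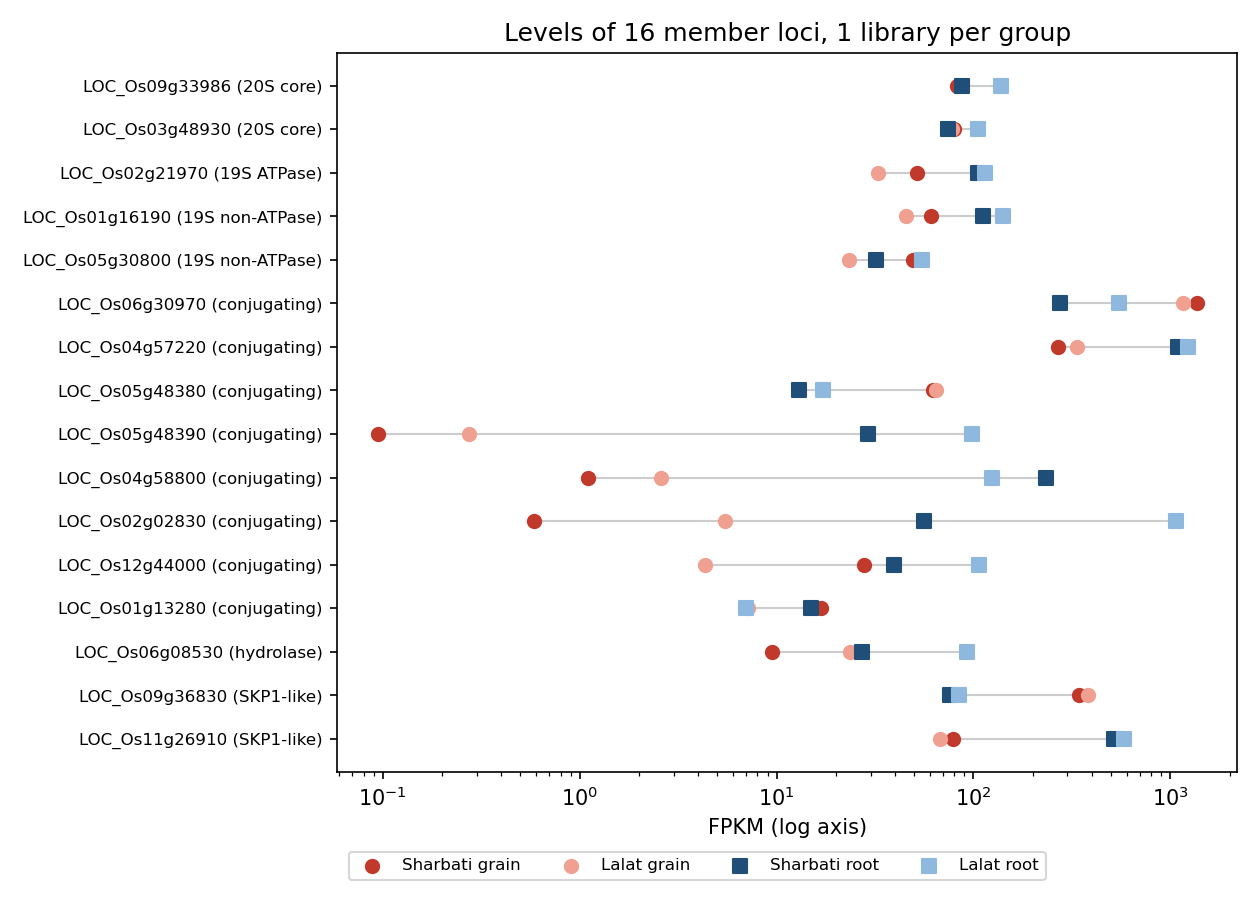
FPKM (log axis) of 16 members in the 4 libraries, circles for grain and squares for root, 1 library each. The core and cap loci drawn here span a narrow range, which does not hold for every core and cap member. Core locus LOC_Os05g41180 and cap locus LOC_Os04g40850 were at least 4-fold higher in root in both cultivars. LOC_Os05g48390, LOC_Os04g58800 and LOC_Os02g02830 lie far higher in root, and LOC_Os09g36830 and LOC_Os11g26910 exchange their order between organs.

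Other loci of the pathway were taken by words in their deposited names. In grain Sharbati was lower at 4 and higher at 1 of 25 compared ubiquitin genes (median ratio -0.52), and at none of 4 activating enzymes, 8 cullins, 6 HECT ligases, 3 COP9 signalosome loci and 2 SUMO loci was it apart. Among target-selecting ligase proteins, F-box loci held 18 higher and 36 lower of 243 (-0.43), RING fingers 12 and 24 of 167 (-0.35), BTB proteins 0 and 10 of 46 (-0.57) and U-box proteins 1 and 1 of 8. Segregase and shuttle factors, which carry tagged proteins to the proteasome, held 0 higher and 1 lower of 17, and other deubiquitinases 0 and 1 of 13. Shares apart were 22.2% of F-box and 21.6% of RING loci, close to the 23.7% of all loci, while 7.46% of the 67 proteasome loci were apart. No test compared these lists, and their levels differ.

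In root the ubiquitin genes held 4 higher and 11 lower of 27 in Sharbati (median ratio -0.63), F-box loci 9 and 96 of 204 (-0.94), RING fingers 7 and 70 of 178 (-0.80), BTB proteins 1 and 23 of 47 (-0.94) and U-box proteins 1 and 7 of 13 (-1.07). Cullins were lower at 3 of 8 and HECT ligases at 3 of 6, COP9 loci at 1 of 3, other deubiquitinases at 7 of 11 and SUMO loci at 1 of 2, with none higher. The 3 activating enzymes were not apart, and segregase and shuttle factors held 1 higher and 8 lower of 17. These shares stand beside the 46.7% of all loci that were lower in Sharbati root.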

How the data were processed

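FPKM values per transcript were deposited by the authors for 4 libraries. The submitters' processing notes name TopHat 1.3.3 with Bowtie 0.12.9, and Cuffdiff with Cufflinks 1.3.0. The build and the annotation release are not given in the sources used here. The p-value and the yes or no call quoted are those the authors deposited for the comparison of the 2 libraries of an organ, made at a false discovery rate of 0.05 per the labels.

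Each distinct FPKM value of a locus was taken once and summed where transcripts differed. Ratios used a pseudocount of 1 and loci at 1 FPKM or more in at least 1 library, and loci at 2-fold were counted. With 1 library per group no test was made. The members, pathway lists (12, by whole words for RING, HECT, OTU and SUMO) and the naming rule were chosen with earlier results of these data known. That rule takes, per role and organ, the 2 members with the highest mean FPKM and up to 2 per direction with the widest ratio at 5 FPKM or more, members apart in both organs, members called by the authors, and members at 0 in 1 library and 5 FPKM or more in the other. Alternatives were pseudocounts of 0.1 and 5, median-ratio scaling, other filters, zeros kept, and the highest transcript only. The value of 1 fragment was inferred from loci whose partner library is empty and whose deposited p is 0.158655. Counting was tested on simulated data. Python 3.11.15, pandas 2.3.3 and numpy 2.4.6 were used. Sequences of the members were not used here.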

Additional observations from a re-analysis of the deposited data

Results flagged for a closer look

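LOC_Os12g44000, an E2 W conjugating enzyme, had a Sharbati over Lalat log2 ratio of 2.44 in grain and -1.41 in root, opposite ways in the 2 organs; the difference was not tested, and the root ratio was -0.43 after median-ratio scaling. LOC_Os03g38720, a UMP1 maturation factor, had a grain over root log2 ratio of 2.69 in Sharbati and -1.39 in Lalat; this difference was not tested either, the Sharbati root level of 0.745 FPKM lies within the range of 1 fragment, and scaling gave 3.17 and -0.30.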

How the results depend on the processing

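No paired analysis was possible because each group has 1 library and no test was made. Of 108 recomputed values, 79 stayed within 1.5 times the count or 0.1 of the median, 27 moved and 2 reversed. The 5 FPKM filter, no filter, the highest transcript only and leaving out the 5 loci with the deneddylation term (added after seeing the data) moved none of the 12 values. Median-ratio scaling gave 8 higher and 8 lower in grain with a median of 0.025, and 11 and 15 in root with a median of 0.16, both medians reversed. It gave 37 lower and a median of -0.12 for grain over root in Sharbati, and 25 higher, 21 lower and -0.10 in Lalat. At 10 FPKM in both libraries the counts were 1 and 3 in grain (median -0.063), 29 lower in root (median -0.65), 8 and 31 for grain over root in Sharbati and 54 lower in Lalat. A pseudocount of 0.1 gave 7 higher in grain. A pseudocount of 5 gave 1 higher and 2 lower in grain, 1 higher in root, and medians of -0.64 in root, -0.40 for grain over root in Sharbati and -0.93 in Lalat. Keeping zeros gave 5 higher in root, and 28 and 11 higher in grain over root in Sharbati and Lalat. The cause was not tested, except that a larger pseudocount draws low loci together and a stricter filter leaves fewer loci. Depth limits Sharbati root most.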
